A study of Mus musculus with 2 samples.

Results

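The EGR and IER genes and Srf are 8 genes that were chosen by symbol from 21911 protein-coding genes: Egr1, Egr2, Egr3, Egr4, Ier2, Ier3, Ier5 and Srf. Their open chromatin was read from DNase-seq of whole adrenal glands. DNase-seq maps where the nuclease DNase I cuts DNA in nuclei, so that open promoters and enhancers appear as peaks, and short stretches inside them that are protected from cutting, called footprints, are listed separately. The labels gave a single group of 2 libraries, biological replicates 1 and 2, from female mice of the F1 hybrid strain B6CASTF1/J aged 36 days. No treatment, second age or second tissue was analysed here, and the sources used here do not say what the animals met before the glands were taken. The glands were numbered as different animals under the same donor record, so that the spread between the libraries is that of 2 glands of 1 stock. Height below is the signal that the authors gave each peak, on their own scale, and if its smallest step is 1 tag per 1000000 the libraries held about 107000000 and 113300000 tags, which was inferred from the heights and not measured. The replicates had 157595 and 166206 peaks and 297594 and 298189 footprints. Peaks were found at the promoters of the cortex genes Nr5a1, Star and Cyp11a1 and of the medulla genes Th, Dbh and Chga in both libraries, those of Th and Dbh being low at 0.863 ± 0.177 and 1.07 ± 0.0981 (SD, n = 2). With 1 group no p-value was computed, and each value of the members stands beside the same value over all protein-coding genes.

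Immediate early genes are switched on within minutes of a stimulus from proteins that are already in the cell. The best known route runs through the MAP kinase ERK, which phosphorylates ETS-family partners of serum response factor (SRF). SRF binds CArG boxes and stays on many of these promoters before and after the stimulus. A second route runs through cyclic AMP and the factor CREB, which binds the cyclic AMP response element (CRE). Egr1, Egr2, Egr3 and Egr4 encode related zinc finger factors that bind GC-rich elements. Egr1 is induced by growth factors and many stresses, Egr2 is needed for myelination by Schwann cells, Egr3 is needed for muscle spindles, and Egr4 is best known from neurons and germ cells. Ier2 and Ier5 encode related nuclear proteins, Ier3 encodes a small protein that acts on survival and ERK signalling, and Srf encodes SRF itself. In the adrenal gland the pituitary hormone ACTH raises cyclic AMP in cortex cells and quickly induces several genes of this class.

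Of the 8 genes, 5 had an entry in the RefSeq promoter set for GRCm38.p6. Egr1, Egr3 and Ier2 had none, and no sequence of theirs is printed. The sequences below are the reference sequence (mm10) of peaks of replicate 1, read 5′ to 3′ on the strand of the gene. The first set is shown because these peaks hold the elements on which the results turn. Capitals mark CArG boxes, TGACG cores of the CRE (CGTCA on the other strand), ETS cores (CCGGAAG) and EGR elements (GCGNGGGCG), searched on both strands.
Egr2, upstream promoter peak, chr10:67537381-67537580, plus strand: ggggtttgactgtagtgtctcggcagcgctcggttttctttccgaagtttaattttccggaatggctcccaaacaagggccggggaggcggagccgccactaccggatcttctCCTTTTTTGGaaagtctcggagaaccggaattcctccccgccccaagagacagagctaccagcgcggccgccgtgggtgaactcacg
Egr2, promoter peak next to the TSS, chr10:67537681-67537860, plus strand: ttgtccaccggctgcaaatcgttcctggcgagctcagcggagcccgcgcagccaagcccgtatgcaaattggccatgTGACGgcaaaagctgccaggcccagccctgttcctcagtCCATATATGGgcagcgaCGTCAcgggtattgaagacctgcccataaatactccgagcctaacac
Egr4, promoter peak, chr6:85513621-85513820, minus strand: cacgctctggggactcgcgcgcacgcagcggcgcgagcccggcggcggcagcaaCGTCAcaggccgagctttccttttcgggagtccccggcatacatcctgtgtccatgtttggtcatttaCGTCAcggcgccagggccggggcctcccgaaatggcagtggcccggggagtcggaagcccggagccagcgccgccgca
Srf, promoter peak, chr17:46556221-46556440, minus strand: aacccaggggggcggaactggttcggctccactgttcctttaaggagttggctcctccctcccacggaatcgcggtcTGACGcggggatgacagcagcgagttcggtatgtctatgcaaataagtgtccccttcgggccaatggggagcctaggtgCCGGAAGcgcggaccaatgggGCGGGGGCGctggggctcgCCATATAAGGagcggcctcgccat
Srf, intronic peak, chr17:46553201-46553380, minus strand: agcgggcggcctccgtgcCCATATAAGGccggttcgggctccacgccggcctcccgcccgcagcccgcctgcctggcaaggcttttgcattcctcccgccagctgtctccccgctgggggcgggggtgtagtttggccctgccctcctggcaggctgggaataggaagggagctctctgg

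The second set is shown because these peaks lack the CArG box and the TGACG core but hold footprints at the same places in both libraries. Capitals mark the bases inside footprints of both replicates. For Ier3 and Ier5 the promoter peak is printed only up to the TSS.
Ier3, promoter peak upstream of the TSS, chr17:35821521-35821683, plus strand: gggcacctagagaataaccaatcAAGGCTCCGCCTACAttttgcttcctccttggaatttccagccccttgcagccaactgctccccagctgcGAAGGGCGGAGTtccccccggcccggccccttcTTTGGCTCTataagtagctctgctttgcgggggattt
Ier5, promoter peak upstream of the TSS, chr1:155099637-155099800, minus strand: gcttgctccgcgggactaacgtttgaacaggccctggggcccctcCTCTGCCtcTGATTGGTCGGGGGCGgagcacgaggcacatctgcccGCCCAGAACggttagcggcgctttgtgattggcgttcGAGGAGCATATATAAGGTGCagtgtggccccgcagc
Ier3, distal peak, chr17:35813301-35813560, plus strand: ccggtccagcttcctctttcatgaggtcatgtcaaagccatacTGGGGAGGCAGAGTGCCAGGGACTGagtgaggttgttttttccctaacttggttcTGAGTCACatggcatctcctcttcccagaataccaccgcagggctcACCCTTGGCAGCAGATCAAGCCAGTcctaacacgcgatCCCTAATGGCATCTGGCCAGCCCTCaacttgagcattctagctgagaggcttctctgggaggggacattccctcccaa

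All 8 genes had an open promoter in both adrenal libraries, and Egr1 was the tallest and Egr4 the lowest. A promoter peak, one within 1 kb of any annotated transcription start site (TSS), was present at 68.6% of all protein-coding genes in replicate 1, at 69.6% in replicate 2 and at 67.5% in both. Over the 8 genes the median height of the strongest promoter peak was 9.79 in replicate 1 and 13.6 in replicate 2, against 2.96 and 4.45 over all protein-coding genes and 6.98 and 10.2 over genes with a peak. In each library 7 of the 8 lay above the median of all genes, Egr4 being the exception. In a whole gland, a promoter open in few cells and one weakly open in many cells give the same height and cannot be told apart.

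Egr1 had heights of 18.02 and 27.6, a mean of 22.8 ± 6.80 (SD, n = 2), and stood above 95.8% and 96.6% of all genes in replicates 1 and 2. Srf, which encodes the factor known to bind CArG boxes, had 13.0 and 20.8 (16.9 ± 5.55). Ier5 had 12.6 and 18.4 (15.5 ± 4.05). Ier2 had 11.6 and 16.5 (14.04 ± 3.43), above 81.9% and 79.9% of genes. These 4 formed the upper part of the order, and stood in the same order in both libraries. The gap between neighbours among them was less than the larger of their SDs. These SDs include the general rise of heights in replicate 2 described below.

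Egr2 had 7.79 and 10.7 (9.27 ± 2.09), and Ier3 had 7.96 and 9.61 (8.79 ± 1.17). This pair changed places between the libraries. Egr3 had 5.02 and 7.79 (6.41 ± 1.96), and stood above 58.1% and 58.8% of genes. Egr4 had 1.64 and 2.92 (2.28 ± 0.903), above 43.7% and 45.6% of genes. The steps from Ier2 to Egr2, from Ier3 to Egr3 and from Egr3 to Egr4 were the only 3 of the 7 neighbouring pairs whose ranges did not overlap and whose gap exceeded the larger SD. Within the EGR family the order of both libraries was Egr1, Egr2, Egr3, Egr4.

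**Figure D1:**
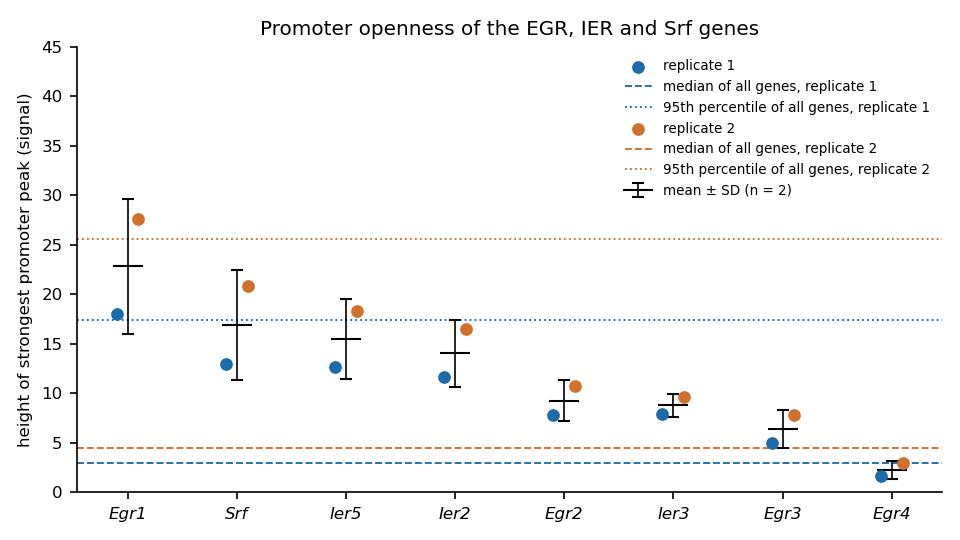
Height of the strongest promoter peak (signal, y axis) of the 8 genes, ordered by the mean of both libraries. Points are replicates, bars are the mean ± SD (n = 2), and lines give the median and the 95th percentile of all 21911 protein-coding genes in each library. Egr1 lies above the 95th percentile in both libraries, at 18.02 and 27.6, and Egr4 lies below both medians, at 1.64 and 2.92.

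All 8 promoters were taller in replicate 2. The log2 ratio of replicate 2 to replicate 1 was 0.62 for Egr1, 0.46 for Egr2, 0.64 for Egr3 and 0.83 for Egr4. It was 0.50 for Ier2, 0.27 for Ier3, 0.54 for Ier5 and 0.68 for Srf. The median of the 8 was 0.58, beside 0.57 over all 14779 promoters with a peak in both libraries, whose central 95% ran from -0.13 to 1.00. All 8 ratios lay inside that range.

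The openness at several of these genes was split into more than 1 peak. In replicate 1, 7 of the 8 genes had at least 2 promoter peaks, and in replicate 2 all 8 did. Of all protein-coding genes, 44.7% and 47.4% had at least 2, or 9790 of 15028 and 10376 of 15241 genes with a peak. Among 31 other immediate early genes, 30 and 29 had at least 2. The 8 genes held 22 promoter peaks in replicate 1 and 27 in replicate 2. Of these, 100% and 77.8% overlapped a peak of the other library, against 88.6% and 83.7% of all peaks near TSSs. Egr1, searched around more than 1 TSS as were Egr2 and Egr3, had the most promoter peaks, with 6 in each library. The 6 peaks of replicate 2 that had no partner ranged in height from 0.282, in the coding exon of Egr4, to 1.73, in the coding exon of Ier5, against a median of 1.73 over the 27.

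Egr1 lies on chromosome 18 (34859823 to 34864984, plus strand, mm10), and has an upstream TSS at 34859823 and a second one at 34861207. Its tallest peak covered 34859821 to 34860040 at the upstream TSS, and set its first place among the members. Before the second TSS stood 3 further peaks. The one centred at -66 bp had heights of 10.1 and 15.3, that at -366 bp had 6.03 and 9.56, and that at -656 bp had 6.27 and 10.4. All of these were lower than the strongest promoter peaks of Srf, Ier5 and Ier2 in both libraries. Peaks beyond the second TSS were low, at 1.21 and 1.37 in the coding exon and at 1.48 and 1.32 in the intron. Of the Egr1 promoter peaks, 2 hold CArG boxes: 3 matches, at -402, -364 and -348 bp, fell in the peak at -366 bp, and 2, at -100 and -78 bp, in the peak at -66 bp. An ETS core stood at -317 bp in the same peak as the group of 3. A pair of overlapping EGR elements, the kind of element that EGR factors bind, stood at -603 and -597 bp and was touched by a footprint in both libraries.

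Egr2 lies on chromosome 10 (67535475 to 67542188, plus strand), and its tall peaks stood before the TSS at 67537869, inside an intron of a longer transcript of the full annotation. The peak centred at -388 bp had heights of 7.79 and 10.7, and that at -98 bp had 6.09 and 10.7. Both hold a CArG box, capitalised in the first pair of sequences above, at -370 and -67 bp. The box at -370 bp was touched by no footprint in either library. The box at -67 bp was touched by a footprint in both, which was 14 bp long in replicate 1 and 25 bp in replicate 2.

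Egr3 (chromosome 14, 70077203 to 70082614, plus strand) was open mainly upstream of its TSS. Its peak at -332 bp had 5.02 and 7.79, while the peak 98 bp after a TSS had only 1.05 and 1.47. The peak at -332 bp holds a CArG box at -355 bp and TGACG cores at -392 and -341 bp. Its longest footprint ran from 70076848 to 70076873, 26 bp, with the same ends in both libraries. Both TGACG cores lay inside footprints in both libraries.

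Egr4 (chromosome 6, 85511121 to 85513589, minus strand) had a peak from 85513621 to 85513820. The sequence above shows 2 TGACG cores, both as CGTCA. The core at -107 bp lay inside a footprint of 18 bp in replicate 1 and 23 bp in replicate 2. The core at -175 bp lay in no footprint as a whole, and no CArG box was found in the promoter peaks of Egr4. Low as its height was, this promoter carried 5 and 3 footprints.

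In Egr1, Egr2 and Egr3 a CArG box and a TGACG core stood at the same distance from each other. In each of the 3 promoters 7 bases lay between the box and the core, and the core was read as CGTCA after the box, as in the second Egr2 sequence (CCATATATGG, then 7 bases, then CGTCA). In each, a footprint of both libraries covered at least 4 of the 5 bases of the core and reached into the CArG box. For Egr1 it ran from 34861133 to 34861156 in replicate 1 and was 24 bp long, and 25 bp in replicate 2. It covered all 5 bases of the core at -64 bp and 1 of the 10 bases of the box. For Egr2 it covered 3 bases of the box in replicate 1 and 9 in replicate 2, and for Egr3 it covered 5 in both.

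The arrangement was noticed in these promoters and then counted over all peaks within 1 kb of a TSS, so that the count is a description. Of 34524 such peaks in replicate 1, 251 held a CArG box, 17 of them with a TGACG core within 20 bases of it. In 6 of these the core was read as CGTCA after the box, on either strand, with 7 bases between them. In replicate 2, 245 of 36697 peaks held a CArG box, and again 6 had the same arrangement. The genes nearest to the 6 were the same in both libraries: Egr1, Egr2 and Egr3, and the immediate early genes Fos, Fosb and Dusp5, which were named after their counts were seen. The Dusp5 peak was the tallest of the 6, at 14.3 and 22.7, and that of Egr3 among the lowest, at 5.02 and 7.79. Among 123071 and 129509 peaks away from TSSs, 0 and 1 had the arrangement.

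**Figure D2:**
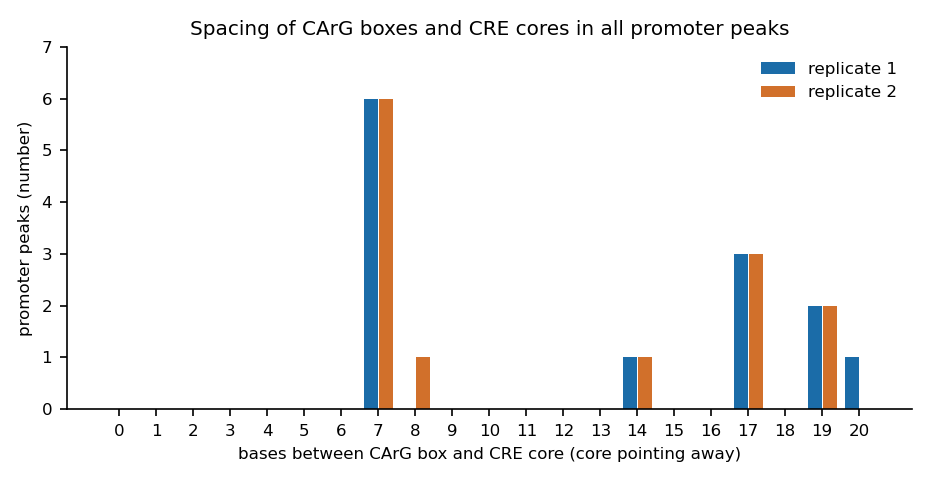
Number of promoter peaks (y axis) by the bases between a CArG box and a CRE core (x axis), over all peaks within 1 kb of any TSS in each library. Counted are cores read as CGTCA after the box on either strand, which the axis calls pointing away. The bars at 7 bases reach 6 peaks in both libraries, 3 of them those of Egr1, Egr2 and Egr3, and no other spacing up to 20 bases has more than 3.

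Srf (chromosome 17, 46548329 to 46556175, minus strand) had 1 tall promoter peak, from 46556221 to 46556440, with 13.0 and 20.8. It holds a CArG box at -65 bp, an EGR element at -84 bp, an ETS core at -106 bp and a TGACG core at -186 bp, all capitalised in its sequence. The peak of replicate 2 began further upstream and did not hold the CArG box. The core at -186 bp lay inside a footprint of 32 bp in both libraries, the longest of this promoter. The EGR element was touched by no footprint in either library, and the CArG box by none in replicate 1. In replicate 2 the box was not scored, since it was not wholly inside the peak. Srf also had a pair of tall intronic peaks, 2.88 and 3.21 kb after the TSS, with heights of 6.85 and 11.8 and of 6.84 and 6.88. The nearer one, printed above, holds a further CArG box (CCATATAAGG) and 2 and 3 footprints. Both lie within 1 kb of the annotated TSS of the microRNA gene Mir6976, and so are not among the distal peaks counted below.

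No CArG box was found in the promoter peaks of Ier2, Ier3 or Ier5. A full CRE (TGACGTCA) was in the window of 200 bp on the strongest promoter peak at 3.23% and 3.32% of all promoters with a peak. Ier2 (chromosome 8, 84661331 to 84662852, minus strand) was the one member with a full CRE in its strongest promoter peak, at -42 bp. A footprint from 84662868 to 84662902, 35 bp, covered it in replicate 1, and one of 38 bp in replicate 2, the longest footprints of any promoter here. Ier3 (chromosome 17, 35821684 to 35822923, plus strand) had a peak centred at -53 bp with 7.96 and 9.61 and 5 footprints in each library. The footprint at -64 bp, gaagggcggagt in the sequence above, holds the GGGCGG box bound by SP and KLF factors. Ier5 (chromosome 1, 155096361 to 155099636, minus strand) had a peak at -55 bp with 12.6 and 18.4. Its footprints at -103 and -69 bp in replicate 1 touched GGGCGG boxes, and that of 20 bp at -27 bp covered the TATA-like stretch gaggagcatatataaggtgc, as did one of 25 bp in replicate 2.

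**Figure D3:**
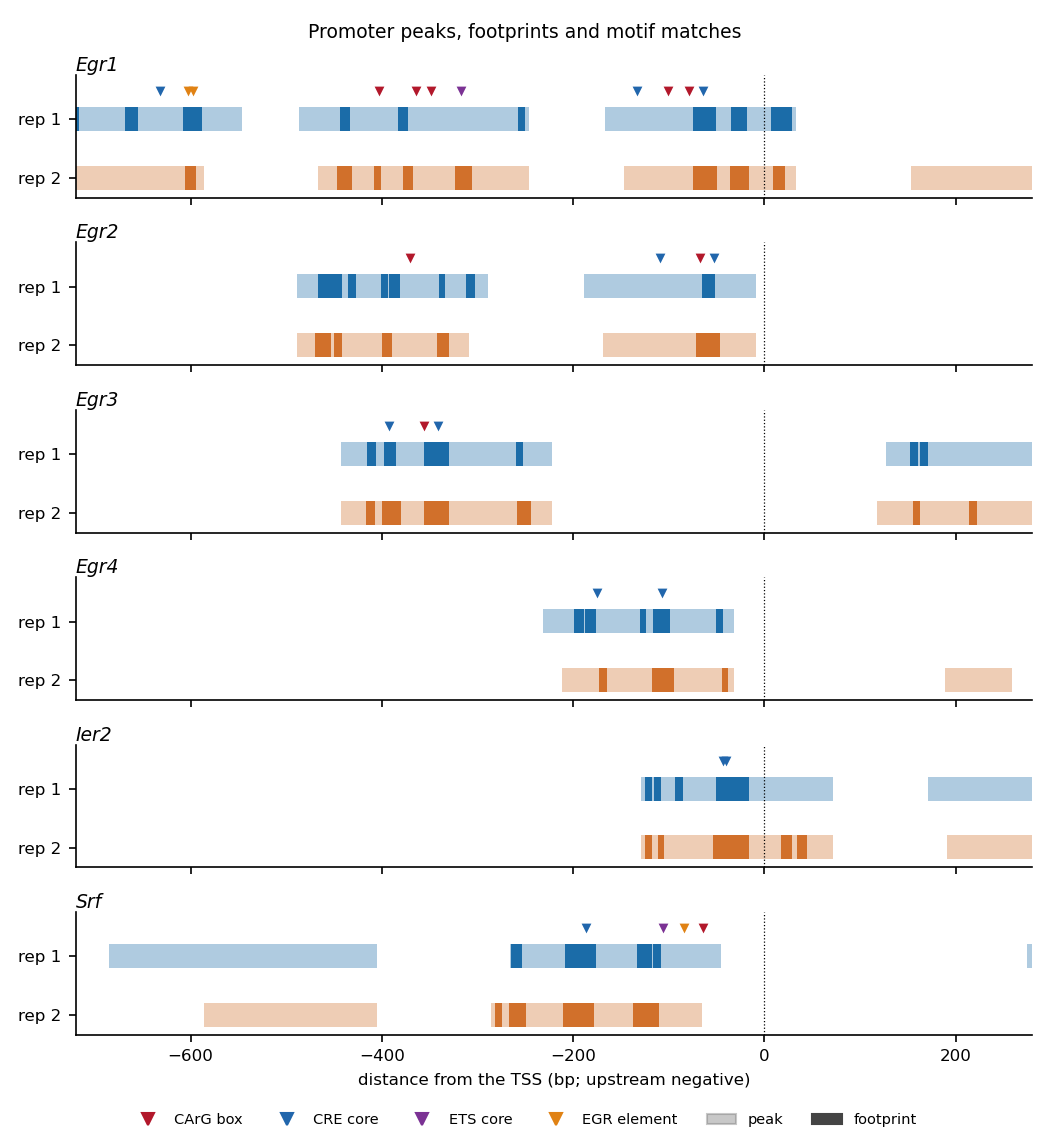
Promoter peaks (light bars) and footprints (dark bars) of 6 genes in each library, by distance from a TSS in bp (x axis; for Egr1 the second TSS), with triangles for motif matches in the peaks of either library. In Egr1, Egr2 and Egr3 a footprint of both libraries lies on the CRE core beside a CArG box, the cores being at -64, -53 and -341 bp, and in Egr2 it covers 4 of the 5 bases of the core in replicate 1.

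Counted in windows of 200 bp on the strongest promoter peak, a CArG box was present at 3 of the 8 genes in replicate 1 (Egr2, Egr3 and Srf) and at 2 in replicate 2 (Egr2 and Egr3), against 0.645% and 0.577% of all promoters with a peak. Egr1 is not among them because its strongest peak is not the one with the boxes. Within -250 to 50 bp of any TSS, 3 of the 8 (Egr1, Egr2 and Srf) held a CArG box, against 2.05% of all genes. The TGACG core was in the window of 4 and 5 of the 8, against 26.5% and 26.3% of promoters. The GGGCGG box was in 5 and 4, against 61.2% and 61.5%. The ETS core was in 1 of the 8 (Srf) in each library, against 14.8% and 14.6%. The EGR element was likewise in 1 (Srf), against 9.68% and 9.97%. The AP-1 element (TGANTCA), the NR4A element (AAAGGTCA) and the SF-1 element (CAAGGTCA), which marks many steroidogenic genes, were in the window of none of the 8, against 4.27%, 0.566% and 0.832% of promoters in replicate 1. A match says that the letters are present, not that a factor is bound.

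The promoter peaks of the 8 genes held 56 footprints in replicate 1 and 57 in replicate 2, and every gene had at least 3. A footprint in a promoter peak was present at 65.9% and 66.9% of all protein-coding genes. The median per gene was 5.5 and 6, against 3 and 3 over all genes and 5 and 5 over genes with a peak. Egr1, with the most promoter peaks, also had the most footprints, with 18 and 16. Of the members' promoter footprints, 75% and 66.7% overlapped a footprint of the other library, against 54.1% and 52.7% of all footprints. That larger set also holds footprints away from promoters, and the share over promoter footprints of all genes was not computed. For the members' distal footprints it was 58.3% and 60.4%. Of the TGACG cores in promoter peaks of the 8 genes, 7 of 14 in replicate 1 and 8 of 13 in replicate 2 lay wholly inside a footprint. Over all peaks near TSSs it was 32.2% in both libraries. The full CRE of Ier2 gives 2 of the members' cores, both inside 1 footprint, and full CREs were counted likewise over all peaks. Of the CArG boxes, 3 of 9 and 5 of 8 were touched by a footprint and none lay wholly inside one, against 31.9% and 29.2% touched and 5.45% and 8% inside over all such peaks.

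Around the genes, the domain of a gene was its body plus 50 kb on either side, cut where the TSS of the next protein-coding gene came first. Distal peaks were those of the domain centred more than 1 kb from every annotated TSS. The 8 genes had 81 in replicate 1 and 78 in replicate 2, a median of 9.5 and 10 per gene against 4 and 5 over all genes. Per 10 kb of domain the medians were 1.35 and 1.33, against 0.575 and 0.595. Of these peaks, 79.0% and 80.8% overlapped a peak of the other library, near the 77.8% and 74.1% of all distal peaks. Ier5, with the longest domain of 100.4 kb, had 17 and 15, Egr1 had 16 and 13, and Egr3 had 14 and 14. Ier2 had 11 and 14, Egr2 had 8 and 7, Srf 5 and 7, Egr4 6 and 4, and Ier3 4 and 4.

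The tall distal peaks differed in place from gene to gene. The tallest of Egr1 lay 26.3 kb downstream of its second TSS, from 34887461 to 34887640, with heights of 15.3 and 23.3. A second stood 27.9 kb downstream with 7.78 and 11.5. Neither held any of the motifs searched. The first was above 98.8% of all peaks of replicate 1, and in both libraries taller than every promoter peak of Egr1 other than the one at the upstream TSS. At Egr3 the peak at -2.20 kb, with 7.86 and 12.0, was taller than the promoter peak in both libraries. Its EGR element and a GGGCGG box that overlaps it lay inside the same footprint in both. A further peak 19.2 kb downstream of Egr3, with 6.34 and 10.7, lay nearer to Bin3. Egr2 had a peak at -1.71 kb with 4.58 and 6.62. Egr4 had one near its 3′ end, 2.13 kb after the TSS, with 2.61 and 4.59, taller than its promoter in both libraries.

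Ier2 was flanked by tall peaks on both sides. The peak at -1.24 kb had 13.97 and 21.4, above the promoter of Ier2 in both libraries, and holds 2 ETS cores. The annotated TSS nearest to it is that of Gm26664, a gene on the upstream side, so that its target cannot be told from the position. The peak at the end of the gene, 1.14 kb after the TSS, had 11.6 and 15.0, and one 23.3 kb downstream, over an exon of Cacna1a, had 10.8 and 12.5. Ier3 had few distal peaks, but the one at -8.25 kb reached 11.1 and 14.5, taller than its promoter in both libraries. The AP-1 element tgagtca in it, printed above within the capitals TGAGTCAC, lay inside a footprint in both libraries. Ier5 had its tallest distal peak 50.5 kb downstream, with 8.90 and 15.8, and another at -39.3 kb, with 6.02 and 7.11 and 2 AP-1 elements, that lay nearer to Mr1. A peak of 11.4 and 16.4 in the Ier5 domain stood at the TSS of Gm9530, 16.1 kb downstream. Distal peaks of Srf were low, at most 0.701 in replicate 1 and 1.73 in replicate 2, the last of these in the gene body. The peak at -18.6 kb had 0.701 and 1.23.

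**Figure D4:**
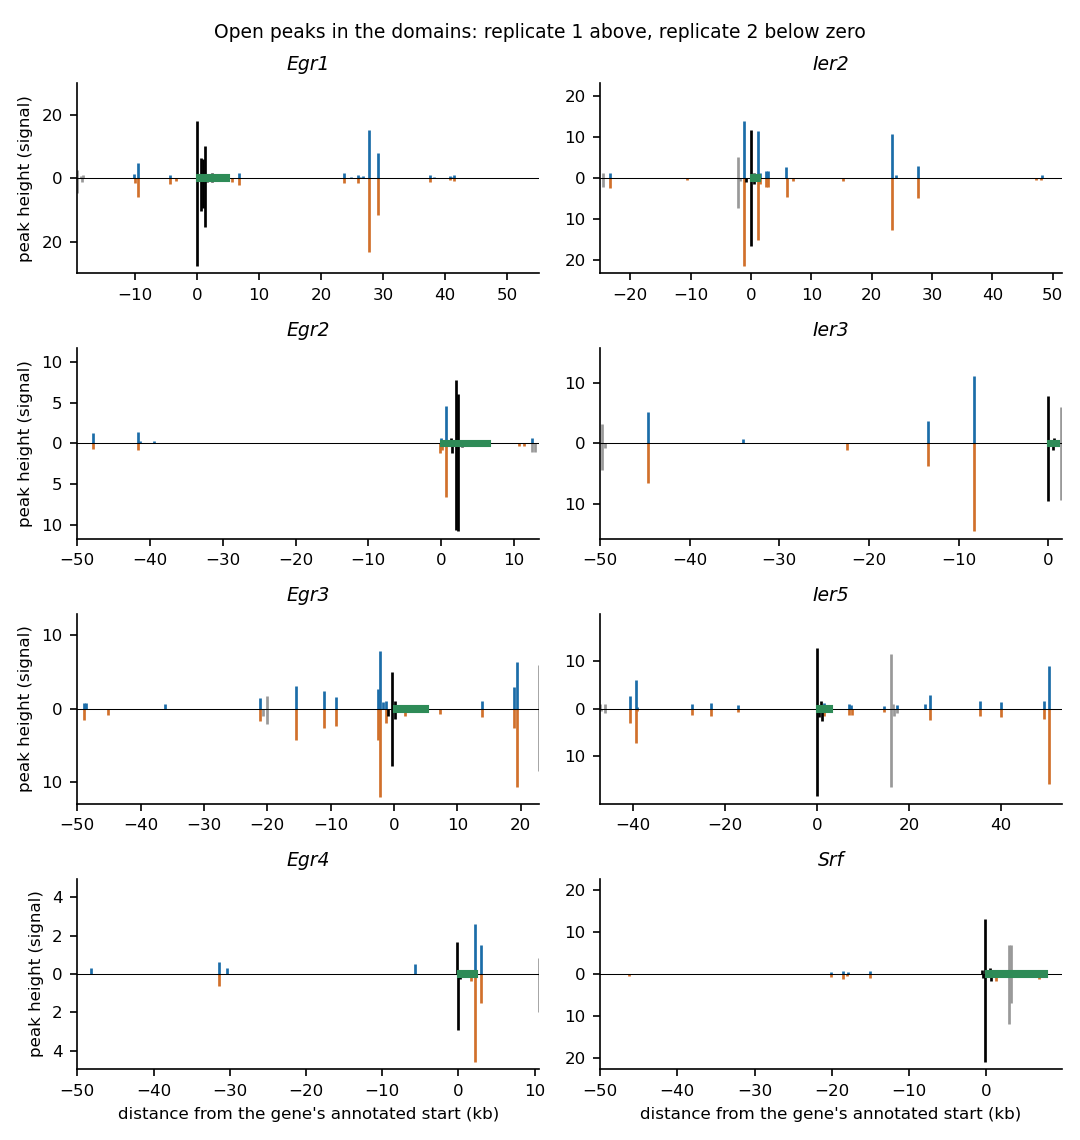
Peak height (signal, y axis) of replicate 1 upward and of replicate 2 downward, by distance from the gene's annotated start in kb (x axis), over the domain of each gene. Black lines are promoter peaks, coloured lines distal peaks and grey lines peaks near the TSS of another gene, and the green bar is the gene. Scales differ between panels. The tallest distal peak exceeds the promoter in both libraries at Egr3, Egr4, Ier2 and Ier3, at Ier2 with 13.97 and 21.4, and that of Egr1, with 15.3 and 23.3, stays below its promoter of 18.02 and 27.6.

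The AP-1 element, the most frequent of those searched in distal peaks of this gland, was in windows of 200 bp on 18 of the 81 and 20 of the 78 distal peaks of the members, near the 22.1% and 19.1% of all distal peaks. The TGACG core was in 17 and 16, against 10.02% and 10.1%, and the GGGCGG box in 13 and 15, against 7.10% and 7.92%. The SF-1 element was in 4 and 2, against 5.48% and 5.14%. A CArG box was in 1 distal peak in each library, the one at -11.1 kb from Egr3, with heights of 2.35 and 2.65.

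The stretches open at a false discovery rate at or under 0.001 gave the width of the opening. The longest such run at the promoter was 1408 and 1569 bp at Srf and 998 and 1128 bp at Egr1. It was 255 and 323 bp at Egr4, and the median over all genes was 405 and 466 bp. At Ier2 and Ier5 the libraries differed at this limit, with 427 and 1675 bp and with 572 and 1619 bp. At or under 0.05 the longest runs were 1658 and 1781 bp at Ier2 and 1980 and 1971 bp at Ier5. Those of Egr1 then differed, with 1135 and 2151 bp. Within 500 bp of the most upstream TSS, the median observed to expected ratio of CpG was 0.761, against 0.571 over all genes. Egr1, at 0.543 around its upstream TSS, was the lowest of the 8 and the one below that median.

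Most genes of the lists that act with these 8 had a promoter peak in both libraries, as did 67.5% of all protein-coding genes. The medians over all genes with a peak were 6.98 and 10.2. Among 31 other immediate early genes, both libraries showed a promoter peak at 30, with medians of 12.9 and 17.9. The tallest was Atf3, a stress-induced factor, at 31.5 ± 9.53 (SD, n = 2), and Npas4, an activity-induced factor of neurons, was listed at 0. All 6 genes for partners of SRF had a peak, with medians of 5.38 and 8.11, below those of all genes with a peak, from Myocd, the partner of heart and smooth muscle, at 0.977 ± 0.416 to Mrtfa, an actin-regulated partner, at 26.5 ± 5.86. Both genes for co-repressors that bind EGR proteins had one, Nab2 at 11.0 ± 2.74 and Nab1 at 6.21 ± 1.34. All 14 genes of the MAP kinase and cyclic AMP route had one, with medians of 11.6 and 18.1, from Rps6ka1 at 3.22 ± 0.718 to Map2k1 at 32.9 ± 11.9.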

How the data were processed

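DNase-seq was analysed in 2 libraries of whole adrenal gland, from female mice aged 36 days. Positions are on mm10, and peaks and footprints were derived library by library from separate alignments, per the labels and the notes beside the files. Which aligner and which peak and footprint callers the authors ran, and how they scaled the heights, the sources used here do not say. The deposited peak height is a signal. The authors deposited a false discovery rate of the cut rate (a q-value), listed only under 0.05. The deposited p-value of every footprint was 0.01, which gives footprints no order. Of the 2 deposited peak lists of each library the longer was used, and the shorter was an alternative. Every height was a whole multiple of 1 step per library (tolerance 0.05 steps). Read numbers were not used here, and heights therefore carry no counting interval.

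Genes and TSSs came from the basic set of GENCODE M21, exons from its full set, and sequence from GRCm38.p6, the C57BL/6J reference, while the animals also carried a CAST genome. A footprint counted when it lay wholly inside a peak. Distances are from the centre of a peak, footprint or match to the nearest TSS of the gene, and peak positions are those of replicate 1. A peak was called shared if at least 1 bp of it was in a peak of the other library. Motifs were searched on both strands: the CArG box by name, the CRE TGACGTCA, its core TGACG, the ETS core CCGGAAG, the EGR element GCGNGGGCG, the SP and KLF box GGGCGG, the AP-1 element TGANTCA, the NR4A element AAAGGTCA and the SF-1 element CAAGGTCA. A full CRE reads as TGACG on both strands and so counts as 2 cores. Measures were tested on simulated peaks with known places. Python 3.11.15, numpy 2.4.6, pandas 2.3.3, pysam 0.24.0, samtools 1.23.1 and matplotlib 3.10.9 were used. The 8 members and the gene lists were chosen with earlier results of these data known. The members are all named, and of each list only the highest and lowest gene. Fos, Fosb and Dusp5 fall outside that rule.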

Additional observations from a re-analysis of the deposited data

How the results depend on the processing

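No paired analysis was possible because the libraries form 1 group. Leaving out 1 library at a time gave a median promoter height of the 8 genes of 9.79 to 13.6, 22 to 27 promoter peaks, a median of 9.5 to 10 distal peaks, 56 to 57 footprints in promoter peaks and 219 to 226 in promoter and distal peaks together. The median of 9.75 distal peaks (mean of both libraries) was 3.5 with flanks of 10 kb, 15.25 with flanks of 200 kb and 6.25 with only peaks above the median height of their library. The mean of 222.5 footprints per library was 118 with flanks of 10 kb and 334.5 with 200 kb. These differences follow from the size of the region or the number of peaks counted. The share of the members' peaks with a partner was 81.7%. Over all peaks of replicates 1 and 2 it was 80.2% and 76.2%. The members' share was 85.7% with the shorter peak lists, 84.6% with flanks of 10 kb and 75.02% when 50% of both peaks had to overlap. The median log2 ratio of replicate 2 to replicate 1 over the 8 genes, 0.58, was 0.43 with heights divided by the median peak height of the library, and that over all promoters 0.42. With a promoter window of 2 kb, Ier2 reached 17.7 ± 5.23 and ranked above Srf. The order of the 8 genes was the same with a window of 500 bp and with the shorter lists. Counting peaks near other genes' TSSs as distal, an alternative chosen after seeing the data, gave a median of 11.5. Leave-one-out values of the share with a partner could not be had, since it needs both libraries.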
